A study of Ovis aries with 32 samples.

Results

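The insulin-like growth factor (IGF) and growth hormone axis was followed in the lamb heart through 5 genes: the ligands IGF1 and IGF2, the growth hormone receptor GHR, and the binding proteins IGFBP2 and IGFBP3. They were chosen by gene name, with earlier results of these data known. Every probe that carries 1 of these names was used, which gave 7 of the 15008 probes of the array. IGF1, GHR and IGFBP3 had 1 probe each, and IGF2 and IGFBP2 had 2 each. All 7 were well above background on all 16 arrays of each tissue, and none was saturated. The arrays name a gene for 1594 probes and 985 symbols, so most of their probes have no gene name here.

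Growth hormone acts on tissues through GHR, a receptor that signals through JAK2 and STAT5 and that raises the transcription of IGF1. IGF1 and IGF2 both act on the IGF1 receptor, and the IGF2 receptor clears IGF2 from the cell surface. The IGFBPs hold the IGFs in blood and tissue and so set how much of them reaches the receptor. In the heart, IGF2 is known as a growth factor of fetal life, and IGF1 as a growth factor of heart muscle cells after birth.

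The lambs were 14 days old. CORT lambs were born to ewes infused with cortisol at 0.5 mg/kg/day from day 115 of gestation until delivery, and Control lambs to ewes given no cortisol. The lambs themselves were not treated. RNA of the left ventricular free wall (LV) and of the interventricular septum (IVS) was hybridised to 1-colour sheep arrays, with 8 CORT and 8 Control lambs in each tissue and 1 lamb per array. The study's methods describe a set of twins in each group and 8 Control lambs in all. The Control lambs of the LV and of the IVS are thus the same lambs and include the twins, which share a ewe. The CORT lambs of both tissues overlap and may include the CORT twins. The sample descriptions do not say which lambs are twins.

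The median spot intensity of the 32 arrays ranged from 131 to 332, and the share of probes well above background from 59.7 to 80.4%. Precision is limited by how many arrays there are. The LV arrays lay on 2 slides, each with 4 Control and 4 CORT arrays, and the IVS arrays on 3 slides with 2 to 4 arrays of a group on each. Of 22 listed heart muscle markers, the 2 with a named probe were bright on every array: the MB and TPM1 probes averaged between 17.9 and 18.3 on the log2 scale in the 4 groups. The others have no named probe, so the tissue could not be checked further. The septal array of CORT lamb 8 stood apart for pituitary hormone transcripts. PRL (prolactin) read 12.50 on it in 1 probe against 6.33 to 6.70 on the other 7 CORT septal arrays, and the 2 probes of GH (growth hormone) read 7.71 and 8.09 against at most 6.33 and 6.46. Results in the IVS are therefore also given without that array where they rest on it. In the LV the same PRL probe read 7.67 and 7.46 on the arrays of CORT lambs 6 and 8, against at most 6.64 in Control lambs.

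The 7 probes are 60 bases long, and the first 30 bases of those that carry the results are shown as the files give them. The IGF2 probes lie apart on the transcript, starting at bases 583 and 1147, and share no run longer than 6 bases, so they read IGF2 mRNA at separate sites. The IGFBP2 probes start at bases 1308 and 1307 and share a run of 59 bases, marked in capitals, so they are a repeat of the same reading. The IGFBP3 probe is rich in G and C (75%, against a median of 43.3% over all probes), a content reached by 0.0733% of the probes.
GHR: caaaacaatgtttaaacttttttgggggag
IGF2 probe 1: ttccggacgacttcacagcataccccgtgg
IGF2 probe 2: ctgaaatgaattggctttttagcaacacca
IGFBP2 probe 1: TTTATTTTTGAACCCCTGTGTCTCTTTTTG
IGFBP2 probe 2: tTTTATTTTTGAACCCCTGTGTCTCTTTTT
IGFBP3: cgcctggcgatccgcgcccgctacacgcgt
The probes were matched to genes by the name in the files, and a position on the genome or within the coding sequence is not given here.

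The first question was whether the lambs of cortisol-treated ewes differed in these genes in either tissue. In the LV, GHR was lower in CORT lambs, while the other 4 genes did not pass the test. GHR was 1 of 7 probes with an unadjusted p under 0.05 (limma's moderated test), where 3.89% of all 11517 tested LV probes passed in either direction, 2.21% being lower and 1.68% higher in CORT lambs. In the IVS none of the 7 probes passed, where 3.70% of 11687 probes did, 2.22% being lower and 1.47% higher. After Benjamini-Hochberg adjustment no probe of the array passed in either tissue.

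Of the ligands, IGF1 mRNA ranged in the LV between 7.76 and 8.64 among Control lambs, around a median of 8.30, and between 7.75 and 8.63 among CORT lambs, around a median of 8.16, on the log2 scale of normalized intensity used for all levels here. The groups overlapped along almost the whole range. The difference, CORT less Control, was -0.089 on the log2 scale (SE 0.15, 95% CI -0.40 to 0.23, exact permutation p = 0.587, two-sided, over all assignments of the 16 lambs to groups of 8). In the IVS, IGF1 ranged between 7.02 and 8.75 among Control lambs, around a median of 7.92, and between 7.64 and 8.32 among CORT lambs, around a median of 8.03. All 8 CORT lambs lay inside the range of the Control lambs, and the difference was 0.067 (SE 0.178, 95% CI -0.31 to 0.44). The upper bounds of these intervals were 1.17-fold in the LV and 1.36-fold in the IVS.

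IGF2 probe 1 ranged in the LV between 9.86 and 11.17 among Control lambs, around a median of 10.41, and between 9.91 and 10.98 among CORT lambs, around a median of 10.75. In the IVS it ranged between 9.45 and 10.91 among Control lambs, around a median of 10.31, and between 9.91 and 11 among CORT lambs, around a median of 10.64. The groups overlapped in both tissues, and in the IVS 7 of 8 CORT lambs exceeded the mean of the Control lambs. The differences were 0.22 in the LV (SE 0.194, p = 0.264, exact permutation p = 0.304) and 0.29 in the IVS (SE 0.195, p = 0.162, exact permutation p = 0.196), so neither exceeded the spread between lambs. IGF2 probe 2 ranged from 13.74 to 14.96 in Control and from 13.94 to 14.73 in CORT lambs in the LV, and from 14.49 to 15.55 and from 14.58 to 15.25 in the IVS. The CORT lambs lay inside the Control range in both tissues. Probe 2 gave smaller differences, 0.034 in the LV (SE 0.161) and 0.028 in the IVS (SE 0.15). Across the 16 lambs of a tissue, the values of the 2 probes, less the mean of their slide and treatment, were correlated (r = 0.94 in the LV and 0.77 in the IVS, rho = 0.97 and 0.83), given as a description of 2 readings from the same arrays.

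**Figure D1:**
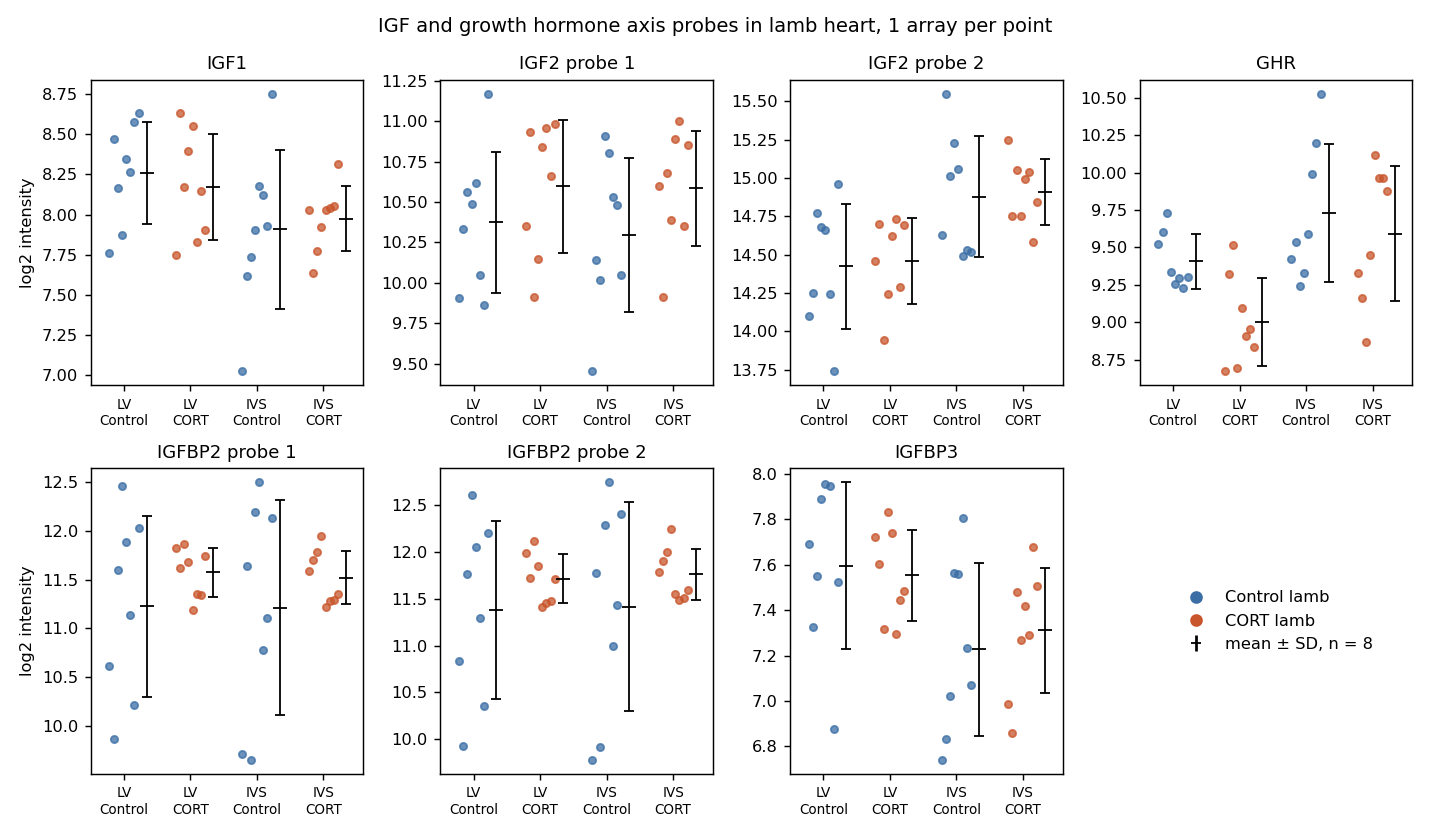
Log2 intensity (y axis) of each of the 7 probes in the LV and IVS of Control lambs (blue) and CORT lambs (orange), with 1 point per array and the mean ± SD of 8 lambs in black; LV and IVS arrays were normalized separately. GHR lies lower in CORT than in Control lambs in the LV, from 8.67 to 9.51 against 9.23 to 9.73, and both IGFBP2 probes spread widely in Control lambs and narrowly in CORT lambs in both tissues.

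GHR, the receptor through which growth hormone acts, ranged in the LV between 9.23 and 9.73 among Control lambs, around a median of 9.32, and between 8.67 and 9.51 among CORT lambs, around a median of 8.93. Of the CORT lambs, 6 lay below the lowest Control lamb and 7 of 8 below the Control mean, and 3 Control lambs lay above the highest CORT lamb, so the groups overlapped in part. The mean was 9.41 ± 0.18 in Control lambs and 8.999 ± 0.30 in CORT lambs (SD, n = 8), a difference of -0.41 on the log2 scale or 0.753-fold (95% CI 0.636 to 0.892; limma, p = 0.00247, adjusted p = 0.9998; exact permutation test, two-sided, p = 0.00684). Among the 11517 LV probes its p ranked 13 from the lowest, and 0.512% of them had a difference as far below 0 or farther. The study itself lists GHR as lower in the LV of CORT lambs at an unadjusted p. Its list came from these same arrays, so the result here is a second reading of a reported difference. The difference was -0.50 on slide 1 and -0.32 on slide 2, and on slide 2 the groups did not overlap. It passed the unadjusted threshold under all 14 other ways of processing (-0.49 to -0.39) and without each lamb in turn (-0.48 to -0.36). Without CORT lamb 6 it was -0.40 and without CORT lamb 8 it was -0.39, the lambs whose LV arrays read higher for PRL. In these bulk samples, fewer cells that express GHR and less GHR mRNA per cell cannot be told apart.

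Marker genes of the cell types of the heart were also read in the LV. Of the 9 fibroblast probes, 5 had a higher mean in CORT lambs and 4 a lower one (median difference 0.024). The 2 that passed the test were lower, both of COL3A1, a fibrillar collagen (-0.27 and -0.28, unadjusted p under 0.05, adjusted p = 0.9998 for each). Of all LV probes, 2.21% were lower and passed. The remaining COL3A1 probe gave -0.11, and that of COL1A2, another fibrillar collagen, gave -0.21, with all 8 CORT lambs below the Control mean. Neither of them passed. The probes of VIM, an intermediate filament protein, gave 0.16 and 0.14, that of BGN, a matrix proteoglycan, 0.17, and those of DCN, another one, 0.078 and 0.024. The unlogged intensities of 8 fibroblast probes were summed, and their summed level ranged from 16.68 to 17.39 in Control lambs and from 16.99 to 17.38 in CORT lambs. VIM and DCN made up most of it, with Control means of 16.47, 15.03 and 13.58. The collagen and BGN probes had Control means of 8.14 to 9.02 and hardly entered it, so a relation with this level is mainly one with VIM and DCN. Across the 16 LV lambs, less the group means, GHR fell with that summed level (r = -0.65, permutation p = 0.00636, adjusted p = 0.0779 over 98 relations of a probe with a marker list; rho = -0.51, permutation p = 0.0458). This r was -0.61 without the 2 lambs farthest from the median, -0.62 on slide 1 and -0.25 on slide 2. The 8 tested leukocyte probes read only CD14, CD3E, CD3D and LYZ, so they are not separate genes. All were lower on average in CORT lambs, as were 49.1% of all LV probes. The 1 that passed the test was a probe of CD14, a monocyte receptor (-0.16, adjusted p = 0.9998). The summed level of 7 of these probes ranged from 9.62 to 11.1 in Control and from 9.80 to 10.3 in CORT lambs. CD4 and ITGAM were near the level of the negative controls. None of the heart muscle (3), endothelial (9), smooth muscle (1), adipocyte (7), erythrocyte (3) or hepatocyte (2) probes passed the test in the LV. The smooth muscle probe, of CNN1, gave 0.44 (SE 0.372). The part of these cell types in the GHR result was not tested.

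In the IVS the GHR level followed the slide. It lay between 9.24 and 9.59 on the Control arrays and between 8.87 and 9.45 on the CORT arrays of slides 3 and 4, and between 9.99 and 10.53 and between 9.88 and 10.12 on slide 5. Slide 5 thus stood above the other septal slides in both groups without overlap. Control and CORT lambs did not overlap on slide 3 and did overlap on slides 4 and 5. Without regard to the slide, the difference was -0.14 (SE 0.211, 95% CI -0.58 to 0.31, p = 0.526; exact permutation p = 0.554). It lay between -0.21 and -0.022 when 1 lamb was left out, at its smallest without Control lamb 8, and was -0.033 without CORT lamb 3 and -0.0097 with arrays weighted by quality. Within the slides it was -0.23, -0.23 and -0.26, each resting on 2 to 4 arrays of a group. With slide as a block it was -0.24 or 0.846-fold (SE 0.094, 95% CI 0.737 to 0.972; limma, p = 0.0211, adjusted p = 0.623; exact permutation within slides, p = 0.0238 over 2100 assignments), where 7.73% of the IVS probes passed in either direction and 3.61% were lower in CORT lambs.

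With slide as a block, the septal difference remained past the threshold in 14 of 16 fits that left out 1 lamb. Without Control lamb 8 it was -0.19 and without CORT lamb 3 it was -0.18, both short of the threshold. Without CORT lamb 8, whose array carried the PRL signal, it was -0.23 and past the threshold. In the LV the block left the difference at -0.41 (SE 0.110, p = 0.00176; exact permutation within slides, p = 0.00163), where 4.68% of the LV probes passed in either direction and 2.54% were lower. The difference between the tissues in the response of GHR, IVS less LV, was 0.27 (SE 0.249, 95% CI -0.23 to 0.78, adjusted p = 0.9998) over the 32 arrays and 0.17 (SE 0.148) with slide as a block, and none of the 7 probes had an interaction p under 0.05 (2.20% of all probes did).

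**Figure D2:**
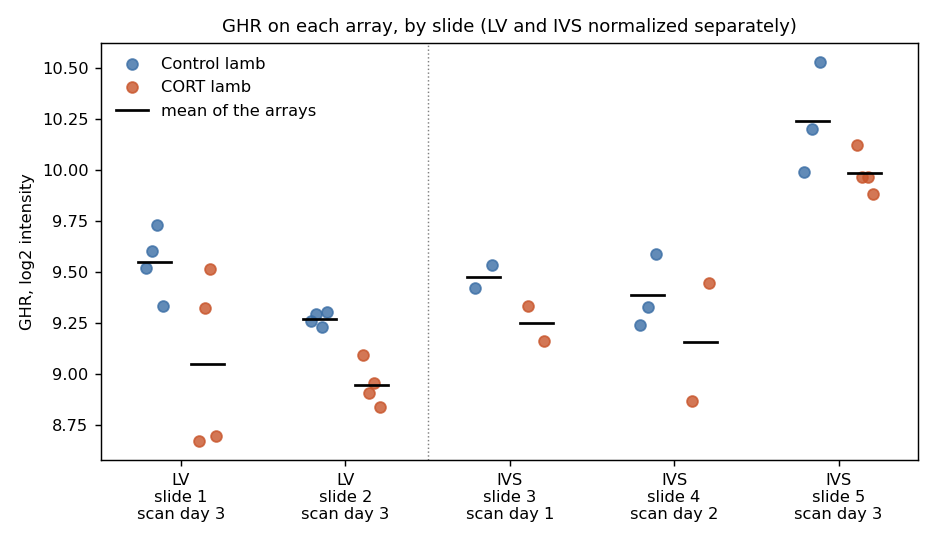
GHR log2 intensity (y axis) on each of the 32 arrays, set out by slide (x axis), with Control lambs in blue, CORT lambs in orange and the mean of the arrays as a black line; scan days are numbered in the order of scanning. The CORT mean lies below the Control mean on all 5 slides, by 0.23 to 0.50, and slide 5 lies above the other septal slides in both groups.

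IGFBP2, a carrier that is abundant in the fetal circulation, differed between the groups in its spread more than in its mean. In the LV, probe 1 ranged between 9.86 and 12.46 among Control lambs, around a median of 11.37, and between 11.19 and 11.87 among CORT lambs, around a median of 11.65. The CORT lambs lay together inside the range of the Control lambs, of which 4 lay below the lowest CORT lamb, 3 above the highest and 1 between them. In the IVS it ranged between 9.65 and 12.50 among Control lambs, around a median of 11.38, and between 11.22 and 11.95 among CORT lambs, around a median of 11.47, again with 4 Control lambs below, 3 above and 1 within the CORT range. The Control lambs thus spanned 6.06-fold in the LV and 7.24-fold in the IVS, and the CORT lambs 1.60-fold and 1.66-fold. Both tissues come from the same Control lambs, so the septal values are not an independent repeat.

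The SD of IGFBP2 probe 1 was 0.93 in Control and 0.25 in CORT lambs in the LV, and 1.11 and 0.27 in the IVS (n = 8). The spread was compared by an exact permutation test of the distances from the group median, chosen after these values were seen and run on all 7 probes in both tissues. The exact test gave p = 0.00389 in the LV and p = 0.00218 in the IVS for probe 1 (both adjusted p = 0.0181 over the 14 tests), and p = 0.00342 and p = 0.00699 for probe 2, which reads the same sequence. The Control SD was at least 3 times the CORT SD for 1.38% of all tested probes in the LV and 3.84% in the IVS, and the median ratio of the CORT to the Control SD over all probes was 0.98 and 0.84. In the LV 0.695% and in the IVS 1.15% of the probes had a ratio as low as that of IGFBP2 probe 1. The difference in spread was as large within slides, where the SD was 1.00 in Control and 0.19 in CORT lambs in the LV, and 1.25 and 0.076 in the IVS. Without septal CORT lamb 8, whose array carried the PRL signal, the ratio of the CORT to the Control SD in the IVS was 0.257 (exact permutation p = 0.00668), against 0.247 with it. No other gene of the 5 passed after adjustment, with adjusted p between 0.0779 for IGF2 probe 2 in the IVS and 0.960.

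The mean of IGFBP2 probe 1 was 11.22 ± 0.93 in Control and 11.58 ± 0.25 in CORT lambs in the LV, a difference of 0.35 (SE 0.308, 95% CI -0.30 to 1.00, p = 0.270; exact permutation p = 0.321). In the IVS the difference was 0.31 (SE 0.366, 95% CI -0.46 to 1.08, p = 0.413; exact permutation p = 0.457). All 8 septal CORT lambs and 7 of 8 LV CORT lambs exceeded the mean of the Control lambs. Probe 2 gave 0.33 in the LV and 0.34 in the IVS. These differences rested on a few Control lambs: in the LV that of probe 1 was 0.16 without Control lamb 2, 0.21 without Control lamb 7 and 0.53 without Control lamb 4. In the IVS it was 0.083 without Control lamb 3, 0.092 without Control lamb 1 and 0.49 without Control lamb 5. With arrays weighted by quality it was 0.098 in the LV and 0.050 in the IVS. The intervals of probe 1 reached up to 1.999-fold in the LV and 2.11-fold in the IVS.

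Of the 808 named probes compared, that of HBB, the beta-globin of red blood cells, had the pattern most like IGFBP2 probe 1 across the arrays (r = 0.85 over 32 arrays, each value less the mean of its slide and treatment). HBB ranged in the LV from 11.43 to 16.23 in Control and from 12.11 to 15.82 in CORT lambs, and in the IVS from 9.71 to 15.79 in Control and from 11.88 to 14.79 in CORT lambs. Its SD was 1.82 in Control and 1.21 in CORT lambs in the LV, and 2.28 and 1.00 in the IVS, so it was wider in Control lambs as well. In each tissue, the 2 Control lambs with the lowest HBB were also the 2 with the lowest IGFBP2. Their numbers differed, being 2 and 7 in the LV and 1 and 3 in the IVS. Over 16 pairs of LV and IVS arrays of the same number, IGFBP2 probe 1 gave r = 0.13 and rho = 0.34, less the mean of slide and treatment. Whether a number marks the same lamb in both tissues was not settled.

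Over Control and CORT lambs together, IGFBP2 probe 1 rose with the summed level of the erythrocyte markers within each tissue, less the group means. In the LV the sum held 2 HBB probes, with Control means of 13.93 and 12.92, and 1 AHSP probe, at 6.83. This level is therefore mainly that of HBB, and the relation restates the likeness to HBB given above. The relation was not taken within each group. In LV CORT lambs HBB ran from 12.11 to 15.82 while IGFBP2 stayed between 11.19 and 11.87, and in LV Control lambs IGFBP2 ran from 9.86 to 12.46. In the LV r was 0.78 (permutation p = 0.00029) and rho 0.79 (permutation p = 0.00054), with an adjusted p of 0.00711 over the 98 relations, and in the IVS, where 1 HBB probe made up the sum, r was 0.89 (permutation p = 2e-05, adjusted p = 0.00098) and rho 0.82 (permutation p = 0.00014). Without the 2 lambs farthest from the median, r was 0.64 and 0.75. Taken one slide at a time, r came to 0.82 (slide 1), 0.77 (slide 2) and 0.83 (slide 5), and slides 3 and 4 hold too few arrays. AHSP, a chaperone of alpha-globin, was dim, with 1 of its 2 probes past the brightness limit on 14 of 16 LV arrays and on 9 of 16 septal arrays. The other 9 genes of the list have no named probe. HBA1, an alpha-globin gene, is among them, and the study lists it as lower in the LV of CORT lambs at an unadjusted p. The part of blood RNA in the spread of IGFBP2 was not tested. The next probes most like IGFBP2 were those of CD1D, a lipid antigen-presenting molecule (r = 0.84), and BAD, a cell death protein of the BCL2 family (r = 0.84). In all, 17 of the 808 named probes (2.10%) had an r above 0.7 with IGFBP2 probe 1.

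**Figure D3:**
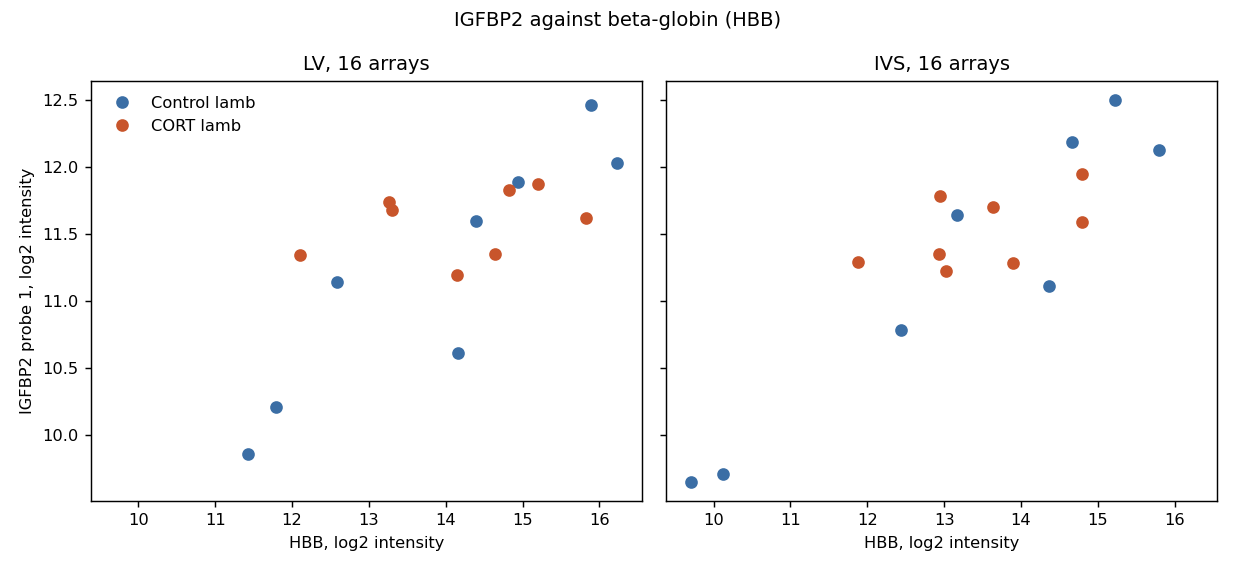
IGFBP2 probe 1 (y axis, log2 intensity) against the HBB probe (x axis, log2 intensity) in the LV and the IVS, with 1 point per array, Control lambs in blue and CORT lambs in orange. Control lambs run from low HBB and low IGFBP2 to high levels of both, while the CORT lambs stay between 11.19 and 11.95 for IGFBP2.

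IGFBP3, the main IGF carrier of adult blood, ranged in the LV between 6.88 and 7.96 among Control lambs, around a median of 7.62, and between 7.30 and 7.83 among CORT lambs, around a median of 7.54. In the IVS it ranged from 6.74 to 7.81 in Control lambs and from 6.86 to 7.68 in CORT lambs. The CORT lambs lay inside the Control range in both tissues. The differences were -0.040 in the LV (SE 0.137, 95% CI -0.33 to 0.25, exact permutation p = 0.794) and 0.082 in the IVS (SE 0.157, 95% CI -0.25 to 0.41, exact permutation p = 0.619).

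**Figure D4:**
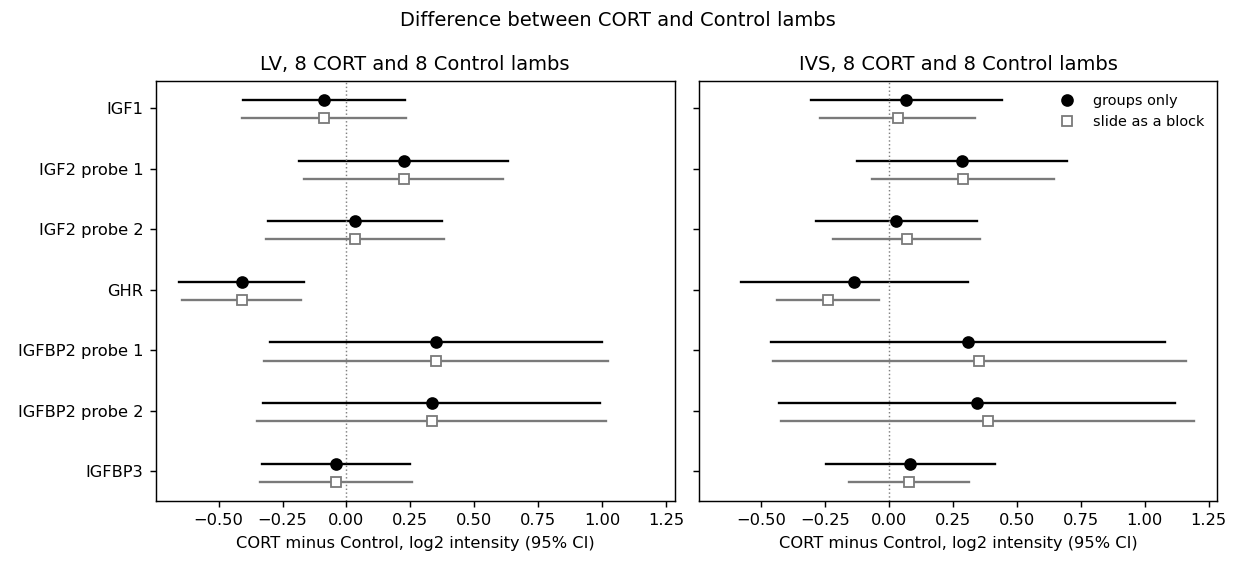
Difference in log2 intensity between CORT and Control lambs (x axis, with its 95% CI) for the 7 probes in the LV and the IVS, from the groups alone (black circles) and with slide as a block (open squares). The interval of GHR lies below 0 in both fits in the LV and, in the IVS, with slide as a block alone, from -0.44 to -0.041; the intervals of the other 6 probes span 0.

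The second question was how the levels compare between the walls of the heart, for which the 32 arrays were normalized together. Each slide carried 1 tissue, so slide was kept as a random block (consensus correlation 0.269). The tissues share lambs, but which arrays pair was not settled. Neither this fit nor the main interaction fit above takes account of that pairing. IGF1 was lower in the IVS than in the LV by 0.44 on the log2 scale (SE 0.201, n = 16 per tissue, p = 0.0369, adjusted p = 0.403), and IGFBP3 by 0.43 (SE 0.177, p = 0.0197, adjusted p = 0.332). IGF2 probe 2 was higher in the IVS by 0.49 (SE 0.197, n = 16 per tissue, p = 0.0177, adjusted p = 0.320), whereas probe 1 gave -0.22 (p = 0.370), so the 2 sites of the IGF2 transcript differed in sign. These were 3 of 7 probes at an unadjusted p under 0.05, a level reached by 11.3% of all probes, and none of the 7 passed after adjustment, which 13 of 11520 probes (0.113%) did, 0.0694% being higher and 0.0434% lower in the IVS.

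The order of the 4 groups was set by comparing the gap between neighbours with their pooled SD, a description that takes no account of the slide. For IGF1 the LV groups (8.33 ± 0.32 in Control and 8.24 ± 0.34 in CORT lambs) lay above the septal groups (7.91 ± 0.20 in CORT and 7.85 ± 0.49 in Control lambs), and between neighbours in this order only LV CORT and IVS CORT differed beyond their spread (0.33 against an SD of 0.28). For IGF2 probe 2 the septal groups (14.92 in CORT and 14.89 in Control lambs) lay above the LV groups (14.45 and 14.43), with the gap between IVS Control and LV CORT (0.44 against an SD of 0.34). For IGFBP3 the LV groups (7.65 in Control and 7.61 in CORT lambs) lay above the septal ones (7.19 and 7.27), with the gap between LV CORT and IVS CORT (0.35 against an SD of 0.235). For GHR the order was IVS Control (9.66), IVS CORT (9.52), LV Control (9.48) and LV CORT (9.07), and only the last step, which lies within the LV, exceeded the spread (0.41 against an SD of 0.25). For IGF2 probe 1 and both IGFBP2 probes no neighbours differed.

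The tissue differences moved with the slides that entered. On the slides scanned on the same day, with 7 septal and 16 LV arrays and no block on slide, GHR was higher in the IVS by 0.76 (SE 0.102, limma, adjusted p = 0.000154). All 7 septal arrays of that day lay on slide 5, so this fit takes arrays of a slide as independent. Over all slides, with slide as a block, the difference was 0.25 (SE 0.169, adjusted p = 0.614). The septal GHR mean on that scan day was 10.02 ± 0.22, against 9.25 ± 0.22 on the 9 arrays scanned before. On those slides alone IGF1 differed by -0.16 (SE 0.137), IGF2 probe 2 by 0.26 (SE 0.129) and IGFBP3 by -0.26 (SE 0.127), none past the unadjusted threshold. Since no slide held both tissues, tissue and slide cannot be told apart on any one slide.

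Each gene was also set against the 808 named probes that are not of the 5 genes, by the correlation over 32 arrays of values less the mean of their slide and treatment. The correlations describe arrays that share slides, RNA quality and lambs. IGF1 was most like FST, the activin inhibitor follistatin (r = 0.84, with 0.85 in the LV and 0.83 in the IVS), then FLT3LG, a growth factor of blood cell precursors (r = 0.67), and HSD11B2, the enzyme that inactivates cortisol (r = 0.66). Between CORT and Control lambs FST gave 0.12 in the LV (adjusted p = 0.9998) and 0.18 in the IVS (adjusted p = 0.984).

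IGF2 probe 2 was most like both probes of IGFBP4, an inhibitory IGF carrier (r = 0.82 and 0.80), and WT1, a transcription factor of the epicardium (r = 0.79). IGF2 probe 1 was most like both probes of TIE1, an endothelial receptor (r = 0.76 for each), and CFL1, an actin-severing protein (r = 0.73) that was higher in LV CORT lambs (0.25, unadjusted p under 0.05, adjusted p = 0.9998). The list of IGF2 thus changed with the probe. GHR was most like TXNDC17, a thioredoxin-like protein (r = 0.77), PPP1R12A, a subunit of myosin phosphatase (r = 0.75), and EIF3A, a translation initiation factor (r = 0.73). EIF3A was lower in LV CORT lambs (-0.32, SE 0.138, unadjusted p under 0.05, adjusted p = 0.9998), while PPP1R12A gave 0.013 and TXNDC17 -0.11 there. IGFBP3 was most like ACTG1, a cytoskeletal actin (r = 0.68), CCND2, a cyclin of the G1 phase (r = 0.68), and a locus named only LOC100037663 (r = 0.66).

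The rest of the axis was read through a list of 95 other genes of growth hormone and IGF supply, receptors, carriers, proteases and signaling, of which 19 have a named probe. Of their 34 probes, 21 were bright enough to be tested in each tissue, and 0 of 21 passed an unadjusted p under 0.05 in the LV or in the IVS, where 3.89 and 3.70% of all probes did. In the LV 12 were higher and 9 lower in CORT lambs (median difference 0.0029, against 0.0014 over all probes), and in the IVS 9 were higher and 12 lower (median -0.016, against -0.0085). With slide as a block 1 of 21 passed in the IVS, where 7.73% of all probes did.

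By role, the hormones GH, GHRH, SST and GHRL and the ghrelin receptor GHSR were too dim to be tested, and so were the 3 probes of IGFBP1 and 1 of 2 probes of PRL. Of 7 receptor probes, the 3 of IGF1R, through which IGF1 and IGF2 act, gave -0.069, -0.084 and -0.13 in the LV, the last with the lowest p (SE 0.070, exact permutation p = 0.0755). In the IVS they gave -0.016, -0.17 and -0.045, the second with an exact permutation p of 0.185. The 2 probes of IGF2R gave 0.087 and 0.068 in the LV and -0.12 and -0.11 in the IVS. Of 8 probes of carriers and proteases, IGFBP4 had the lowest p, with -0.20 in the IVS (SE 0.122, exact permutation p = 0.129), where 7 of 8 CORT lambs lay below the Control mean.

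In growth hormone signaling, the 2 probes of STAT5A, the main transcription factor of the growth hormone response, gave -0.016 and 0.0025 in the LV and -0.19 and -0.16 in the IVS. Of 2 probes in IGF receptor signaling, RPS6, the ribosomal protein at the end of the mTOR and S6 kinase route, gave -0.13 in the LV (SE 0.069, exact permutation p = 0.0786) and -0.38 in the IVS (SE 0.205, exact permutation p = 0.115; 7 Control and 5 CORT arrays). AKT1, the kinase between the IGF1 receptor and mTOR, gave 0.14 in the LV and 0.024 in the IVS.

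**Figure D5:**
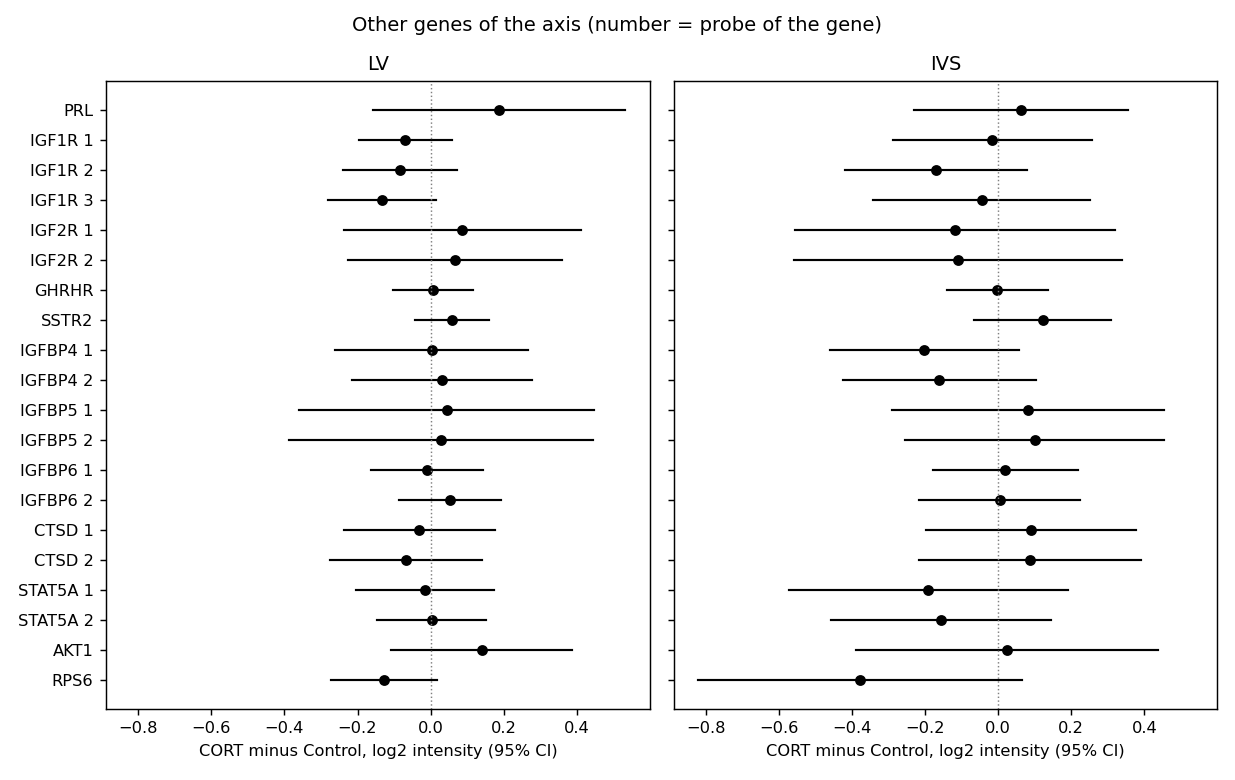
Difference in log2 intensity between CORT and Control lambs (x axis, with its 95% CI) for tested probes of the other genes of the axis, in the LV and the IVS; a number after a symbol counts the probes of that gene. Every interval spans 0 in both tissues.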

How the data were processed

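The 32 Agilent 1-colour sheep arrays were scanned and read by the authors with Agilent Feature Extraction 10.1.1.1, and the deposited scanner files give the mean spot intensity and the median local background intensity of each spot, not normalized. The authors also deposited a log2 matrix for each tissue, used here only as an alternative. Samples were grouped by the tissue and treatment in their labels. Another tissue of the study, adipose tissue around the heart, was not analysed here.

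Intensities were corrected with normexp (offset 50), quantile normalized over the 16 arrays of a tissue and log2 transformed in limma 3.58.1 (R 4.3.3, statmod 1.5.0). Control spots and spots marked as outliers were left out, and spots of a probe were averaged. A probe was tested when it was over 10% brighter than the 95th percentile of the negative controls on at least 8 arrays, which 11517 LV and 11687 IVS probes were (11520 on at least 16 of 32 arrays). Groups were compared with lmFit and eBayes, two-sided, and a probe was called below an unadjusted p of 0.05, the study's own threshold, with Benjamini-Hochberg adjustment beside it. Member probes were also tested by exact permutation, and correlations with marker lists by 100000 permutations. The interaction and the tissue comparison used all 32 arrays normalized together. The other steps used Python 3.11.15 with numpy 2.4.6, scipy 1.17.1 and pandas 2.3.3, and figures matplotlib 3.10.9.

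The members and lists were chosen with earlier results of these data known. Named were all member probes, the other genes of the axis by count and by their lowest p, and for each member probe the 3 named probes of highest correlation. PRL, GH and marker probes named beyond this rule were chosen after their values were seen, as was the test of spread. The labels do not say which samples share a pregnancy, and the Control lambs include twins. Cortisol was given to ewes, while the tests and permutations take each lamb as independent. The p-values therefore measure the spread between these samples, not between ewes. The fits were tested on simulated data. Alternatives changed the background correction, normalization, filter, slide and replicate blocks, array weights and prior, and left out each array in turn. The values of 1 gene of the axis lists are not reported here.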

Additional observations from a re-analysis of the deposited data

Results flagged for a closer look

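Dixon's test at 95% was run on 64 groups, 28 of the probes of the 5 genes and 36 of 9 probes of other genes of the axis. It marked 8 values that lay apart from the rest of their group. Chance marks about 1 in 20 groups, but GH and PRL, which gave 5 of the 8, were chosen after their values were seen, so the number of marks cannot be set against that rate. On the septal array of CORT lamb 8, PRL read 12.50 in 1 probe, GH read 7.71 and 8.09 in 2 probes, and IGFBP4 read 13.70 in 1 probe, each the highest of the 8 CORT lambs. For GH, 1 of these probes also stood apart on the LV array of CORT lamb 6, at 6.62. In the other PRL probe, the LV array of Control lamb 8 stood above the other Control arrays at 7.21. The LV array of CORT lamb 8 read higher in that probe, at 7.85, and was not marked. Nor were the LV arrays of CORT lambs 6 and 8 in the first PRL probe, at 7.67 and 7.46, against at most 6.64 in Control lambs. An IGF1R probe stood below the rest in the IVS of Control lamb 2, at 9.23, and of CORT lamb 2, at 8.91. None of the values of IGF1, IGF2, GHR, IGFBP2 or IGFBP3 stood apart in this way.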

How the results depend on the processing

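GHR in the LV kept its direction and its side of the threshold under every alternative tried. The number of LV probes called was 732 with arrays weighted by quality, against 448, and IGF2 probe 2 in the LV then turned to -0.046. In the IVS, slide as a block raised the probes called from 432 to 903 and gave GHR -0.24, the 1 member probe called, and the replicate block raised them to 702. With slide as a block, leaving out 1 lamb gave GHR in the IVS -0.31 to -0.18, past the threshold except without Control lamb 8 and without CORT lamb 3. Leaving out 1 lamb without the block turned the sign of IGF1 in the IVS (-0.059 to 0.19), of IGF2 probe 2 in the LV (-0.064 to 0.11) and in the IVS (-0.027 to 0.12) and of IGFBP3 in the LV (-0.14 to 0.011), none of them called. The interaction was called for 588 probes with slide as a block, against 254, and turned to -0.0060 for IGF2 probe 2 with quantile normalization within each tissue and to -0.017 for IGFBP2 probe 2 with the processed signal. Between IVS and LV, probes called at an unadjusted p numbered 3234 with no block, 3380 with the replicate block and 2672 on the slides of scan day 3 alone, a fit with no block that was chosen after seeing the data. After adjustment they numbered 1399, 1372 and 926, against 0 with the processed signal and 3 with cyclic loess. GHR was then higher in the IVS by 0.31 with no block, by 0.31 with the replicate block and by 0.76 on scan day 3. IGF1 missed the threshold with cyclic loess (-0.46) and on scan day 3 (-0.16), IGF2 probe 2 with the processed signal (0.22), cyclic loess (0.44) and on scan day 3 (0.26), and IGFBP3 on scan day 3 (-0.26), which left 1 member probe called with cyclic loess and 1 on scan day 3. The cause of these changes was not tested.

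The replicate numbers of the labels were used as a block only as an alternative. Control and CORT lambs of the same number deviated together with r of 0.0013 to 0.296 in the LV and -0.138 to 0.426 in the IVS, and LV and IVS arrays of the same number with r of -0.597 to 0.665, best with their own number in 4 of 16. Those were CORT lambs 5 to 8 (r of 0.39 to 0.67). CORT lambs 1 to 4 lay in the IVS on slides with 2 CORT arrays, where centring makes the values mirror each other and the check says nothing. Whether a number marks the same lamb in both tissues was therefore not settled. With the replicate block GHR was -0.41 in the LV and -0.14 in the IVS. The small number of arrays and the 3 scan days limit the precision of the septal values.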
